A study of Mus musculus with 32 samples.

Results

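Transcripts of 9 genes of coagulation, fibrinogen and fibrinolysis were followed in whole kidneys of lupus-prone mice. They were chosen by gene symbol, 9 of 15780 named genes on the array, each with 1 probe set. They fall into 3 roles of 3 genes each. Fga, Fgb and Fgg encode the chains of fibrinogen. F3, Thbd and Serpina10 start or restrain clotting. Plat, Plau and Plaur encode the plasminogen activators and the urokinase receptor.

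Tissue factor, the product of F3, starts the clotting cascade that ends when thrombin cuts fibrinogen to fibrin. Thrombomodulin, the product of Thbd, turns thrombin towards the activation of protein C, and plasmin made by the tissue-type and urokinase-type plasminogen activators dissolves the clot. The liver makes most circulating fibrinogen, whose genes respond to interleukin 6 during the acute phase, and injured tubular epithelium can transcribe them as well. Fibrin deposits and thrombi are well known in lupus glomeruli.

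Kidney RNA was hybridized to Affymetrix arrays, 1 array per kidney sample, 32 in all. RMA gave the deposited values, on a log2 scale, so a difference of 1 is a doubling. The NZB/W mice, which develop lupus spontaneously, gave 26 kidneys. Of these, 7 came from untreated mice at 30 weeks of age that were not proteinuric. Triple therapy with CTX (cyclophosphamide), CTLA4Ig and anti-CD154 had been given to others, of which 8 were harvested in early and 6 in late remission. A further 5 were taken in late remission after Ad-TACI-Ig, an adenovirus that encodes a soluble receptor for BAFF and APRIL, which keep B cells alive, together with CTLA4Ig. The last 6 kidneys came from NZM2410 mice, another lupus-prone strain, in remission after Ad-BAFF-R-Ig, an adenovirus that encodes a soluble receptor for BAFF. Below these groups are called 30 weeks, early triple, late triple, late TACI-Ig and NZM2410. Ages of the remission groups are not given in the labels used here. The methods state that kidneys were perfused with saline before harvest, and a whole kidney holds glomeruli, tubules, vessels and infiltrating cells together. Kidneys with active nephritis and those of young animals are not analysed here, so no difference below is a change from nephritis. Strain, agent and any array batch cannot be told apart in the NZM2410 comparison. The labels number the samples and do not state that each came from a separate mouse (30-week replicate 6 and early triple replicate 1 carry the same mouse code), so p-values measure the spread between these samples.

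The arrays had medians of 7.02 to 7.16, and the SD over probe sets was 1.91 to 2.04 in NZB/W and 2.12 to 2.18 in NZM2410 kidneys. The number of arrays sets the precision. The kidney epithelium list (Umod, Slc12a1, Slc12a3, Slc34a1, Lrp2, Aqp2 and Nphs1) averaged 11.39 or more on the log2 scale in every kidney. Adrenal cortex markers (7 genes, Star and Cyp11b1 among them) were unequal between groups. Their mean ran from 5.46 to 9.21 at 30 weeks and from 5.16 to 8.76 in early triple, against 5.37 to 5.62 in late TACI-Ig and 5.25 to 5.53 in NZM2410. In late triple the group mean of every gene lay within 0.0255 of the mean over the 12 kidneys of the 30-week and late TACI-Ig groups, and within 0.0088 for the 9 genes. All 3 comparisons with late triple, that with early triple included, therefore rest on a mean that repeats those kidneys and may not be informative about late triple remission. The methods name a batch correction without naming the batches, and its part in this match was not tested.

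The fibrinogen genes are shown first as sequence, because all 3 chains sit side by side on chromosome 3 and their levels are compared with each other below. The lines give the 250 bases before each start site, read 5′ to 3′ on the gene's strand, from RefSeq on build GRCm38.p6. They cover chr3:83025903-83026152 on the plus strand for Fga, chr3:83049864-83050113 on the minus strand for Fgb and chr3:83007474-83007723 on the plus strand for Fgg. Capitals mark matches to any of 5 motifs.
Fga: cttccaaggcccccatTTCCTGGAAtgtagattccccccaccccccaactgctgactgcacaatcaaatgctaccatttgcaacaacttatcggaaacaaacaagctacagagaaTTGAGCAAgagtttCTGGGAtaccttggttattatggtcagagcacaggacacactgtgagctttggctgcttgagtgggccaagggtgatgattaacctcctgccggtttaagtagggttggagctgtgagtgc
Fgb: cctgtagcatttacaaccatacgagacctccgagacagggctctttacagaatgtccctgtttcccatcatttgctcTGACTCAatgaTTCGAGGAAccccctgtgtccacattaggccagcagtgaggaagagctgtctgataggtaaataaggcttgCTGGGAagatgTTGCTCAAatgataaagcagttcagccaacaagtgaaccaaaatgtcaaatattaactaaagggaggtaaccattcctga
Fgg: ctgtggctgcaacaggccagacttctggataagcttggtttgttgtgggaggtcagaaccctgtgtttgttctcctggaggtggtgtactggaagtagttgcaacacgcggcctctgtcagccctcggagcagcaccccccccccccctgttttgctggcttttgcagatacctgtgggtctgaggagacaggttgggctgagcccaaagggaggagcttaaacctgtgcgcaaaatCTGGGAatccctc

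The motif CTGGGA, known from fibrinogen genes as an interleukin 6 response element, matched all 3 windows on the plus strand. Both strands were searched, and 27.0% of 32851 promoter windows of the same length held it. The STAT motif TTCNNNGAA matched in Fga and Fgb, against 7.02% of all windows. The C/EBP motif TTGCNNAA matched in the same 2 windows, on the minus strand in Fga, and on the minus strand in the window of Plaur, against 9.56% of all windows. The AP-1 motif TGANTCA matched in Fgb among the chains and also in the windows of F3, with 2 matches, and Plaur, against 6.75% of all windows. The HNF1 motif matched none of these 5 windows and 0.0335% of all windows. A match describes letters in the window, not a bound site.

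Fga, the gene of the fibrinogen alpha chain, had log2 values of 9.37 to 9.96 at 30 weeks (median 9.51). In early triple they ran from 8.67 to 10.81 (median 8.88), and in late triple from 8.87 to 10.71 (median 9.12). Single kidneys made those wide ranges: early triple replicate 2 stood at 10.81 with the other 7 at or below 9.61, and late triple replicate 8 at 10.71 with the other 5 at or below 9.34. The 5 late TACI-Ig kidneys had Fga values of 8.18, 9.50, 9.16, 9.17 and 8.94. The NZM2410 kidneys lay close together, from 9.12 to 9.33 (median 9.21), all just below the lowest 30-week kidney at 9.37. The share of all genes without overlap between these 2 groups was not counted.

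Fgb, the gene of the beta chain, ran from 5.23 to 7.1 at 30 weeks (median 5.85). It ran from 4.98 to 6.65 in early triple (median 5.41) and from 5.08 to 6.74 in late triple (median 5.36). The 5 late TACI-Ig kidneys stood at 4.67, 5.69, 5.22, 4.86 and 5.45. In NZM2410 Fgb ran from 5.84 to 6.51 (median 5.90), above all 5 late TACI-Ig kidneys but inside the 30-week range. The mean of Fgb over all kidneys was below 6.07, the cut-off used for dim genes.

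Fgg, the gene of the gamma chain, ran from 8.35 to 10.10 at 30 weeks (median 9.08). It ran from 8.26 to 9.50 in early triple (median 8.55) and from 8.35 to 9.26 in late triple (median 8.96). The 5 late TACI-Ig kidneys stood at 7.58, 8.73, 8.91, 8.28 and 9.17, and those of NZM2410 lay between 8.80 and 9.36 (median 9.12). Late TACI-Ig replicate 1 was the lowest of all kidneys for each chain. The group order was not one order for all chains: the 30-week mean was the highest for Fga and Fgg and the NZM2410 mean for Fgb, while late TACI-Ig had the lowest mean for all 3. No 2 neighbours in the order of any chain differed by more than their pooled SD.

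**Figure D1:**
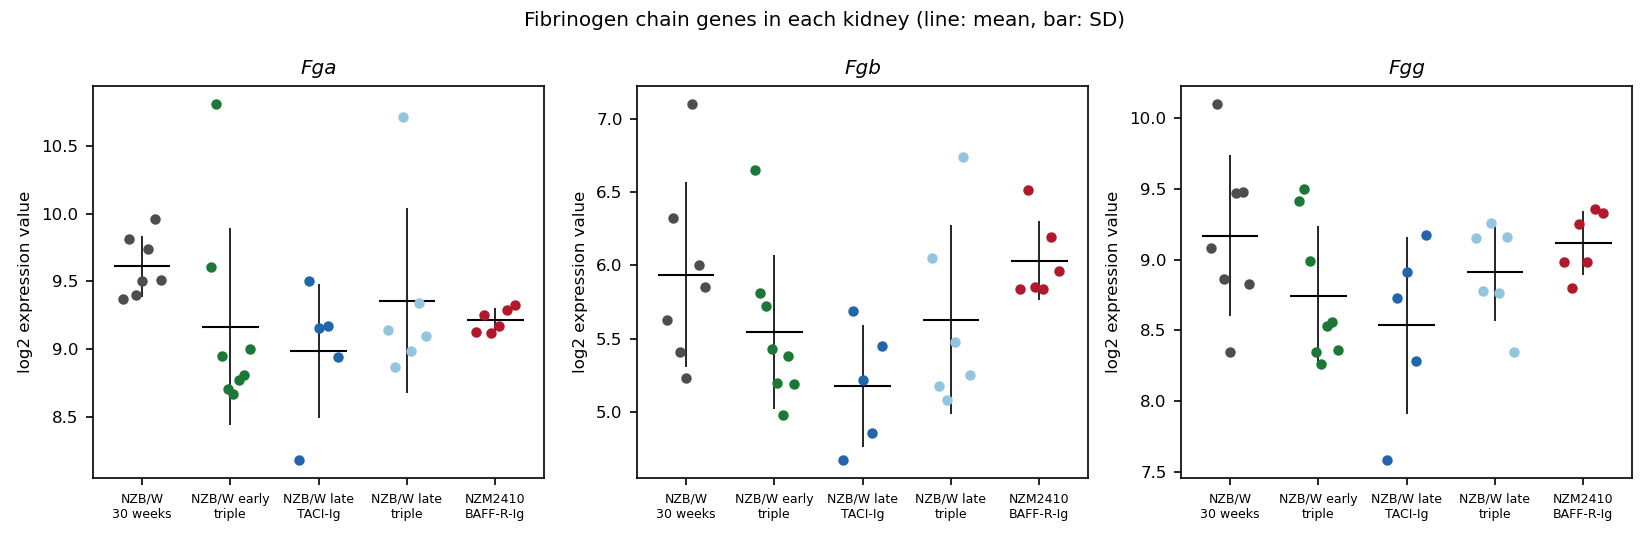
Log2 expression values of Fga, Fgb and Fgg (vertical axes, each with its own range) in each of the 32 kidneys by group. Points are kidneys, the line is the group mean and the bar 1 SD to each side. Late TACI-Ig had the lowest mean for all 3 chains (8.99, 5.18 and 8.53). NZM2410 and late TACI-Ig kidneys did not overlap for Fgb, nor for 38.5% of all genes. For Fga the highest NZM2410 kidney (9.33) lay just below the lowest 30-week kidney (9.37).

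Among the clotting genes, F3 averaged 7.73 ± 0.48 (SD, n = 7) in 30-week kidneys, 7.34 ± 0.19 (SD, n = 8) in early triple and 7.62 ± 0.27 (SD, n = 6) in late triple. It averaged 7.46 ± 0.22 (SD, n = 5) in late TACI-Ig and 7.72 ± 0.28 (SD, n = 6) in NZM2410. The 30-week kidneys spread from 6.98 to 8.50 and enclosed the range of every other group.

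Thbd ran from 8.33 to 8.77 at 30 weeks (median 8.48), from 8.06 to 8.82 in early triple (median 8.56) and from 8.43 to 8.83 in late triple (median 8.59). The 5 late TACI-Ig kidneys stood at 8.65, 8.44, 8.74, 9.01 and 8.92. The NZM2410 kidneys ran from 8.03 to 8.78 (median 8.31), so that the groups overlapped.

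Serpina10 encodes the protein Z-dependent protease inhibitor, which inactivates clotting factor X once activated. It averaged 8.19 ± 0.80 (SD, n = 7) in 30-week kidneys, 7.91 ± 0.44 (SD, n = 8) in early triple and 8.40 ± 0.56 (SD, n = 6) in late triple. In late TACI-Ig it averaged 8.70 ± 0.79 (SD, n = 5), with kidneys from 7.50 to 9.69, and in NZM2410 8.37 ± 0.39 (SD, n = 6). The 30-week replicate 2 stood alone at 9.94, against 7.57 to 8.21 in the other 30-week kidneys, and was the highest of all 32.

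Plat, the gene of the tissue-type activator, averaged 9.77 ± 0.38 (SD, n = 7) in 30-week kidneys, 9.66 ± 0.15 (SD, n = 8) in early triple and 9.65 ± 0.37 (SD, n = 6) in late triple. In late TACI-Ig it averaged 9.47 ± 0.38 (SD, n = 5) and in NZM2410 9.86 ± 0.33 (SD, n = 6). The same 30-week replicate 2 that was highest for Serpina10 was lowest for Plat, at 8.92 against 9.77 to 10.07 in the rest of its group.

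Plau, the gene of urokinase, ran from 5.73 to 7.29 at 30 weeks (median 6.68), from 6.19 to 7.76 in early triple (median 6.69) and from 6.4 to 7.13 in late triple (median 6.52). The 5 late TACI-Ig kidneys stood at 6.55, 6.66, 6.85, 6.93 and 6.52. The NZM2410 kidneys ran from 5.14 to 5.71 (median 5.55). All 26 NZB/W kidneys lay above the highest NZM2410 kidney, though the lowest of them, a 30-week kidney at 5.73, lay close to it. The share of all genes that separate in this way was not counted. Between NZM2410 and late TACI-Ig, 38.5% of all genes did not overlap.

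Plaur, the gene of the receptor that holds urokinase at the cell surface, ran from 7.18 to 7.64 at 30 weeks (median 7.41), from 7.19 to 7.75 in early triple (median 7.39) and from 7.28 to 8.0 in late triple (median 7.54). The 5 late TACI-Ig kidneys stood at 7.77, 7.49, 7.59, 8.18 and 7.72, and the NZM2410 kidneys ran from 7.21 to 7.59 (median 7.45). Late TACI-Ig had the highest mean for Plaur, Thbd and Serpina10, and the lowest for Plat and for all fibrinogen chains. Over the 9 genes, 36 pairs of neighbouring groups were compared with their pooled SD and 1 exceeded it, namely Plau between 30 weeks (6.53) and NZM2410 (5.51), which differed by 1.02 with a pooled SD of 0.41.

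**Figure D2:**
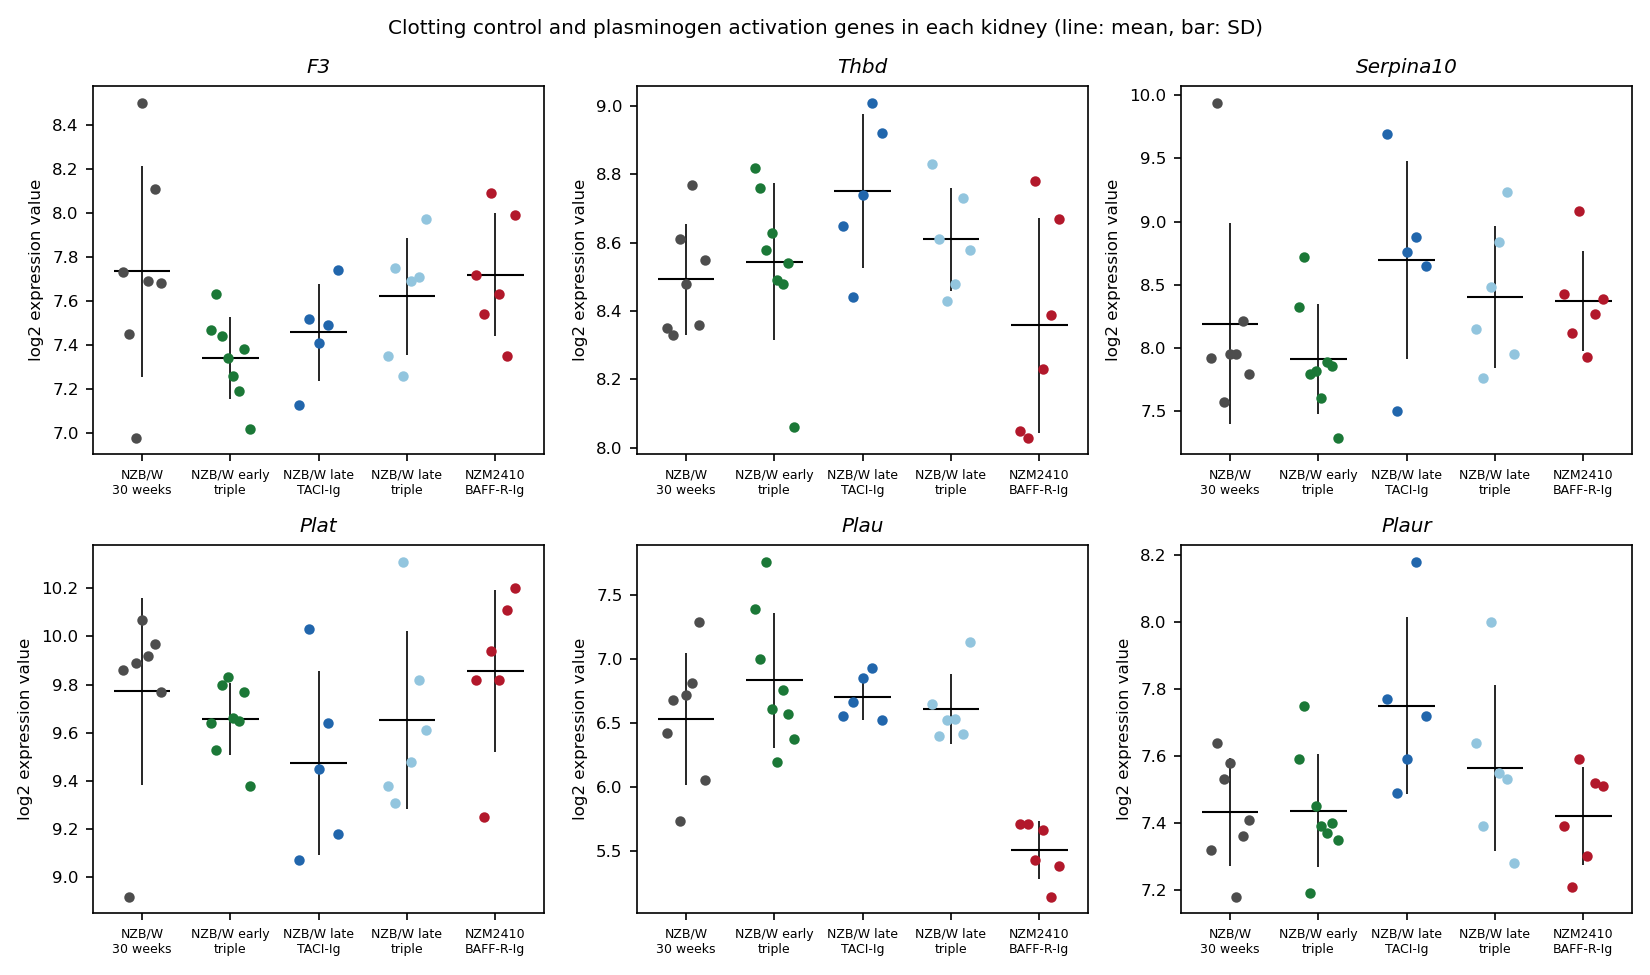
Log2 expression values of F3, Thbd, Serpina10, Plat, Plau and Plaur (vertical axes, each with its own range) in each kidney by group. Points are kidneys, the line is the group mean and the bar 1 SD to each side. All 6 NZM2410 kidneys lay at or below 5.71 for Plau, and 30-week replicate 2 stood apart for Serpina10 (9.94) and Plat (8.92).

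Groups were compared with limma, each pair fitted on its own over 15780 genes with Benjamini-Hochberg adjustment and a threshold of 0.05. Fewer cells that carry a transcript and less of it per cell cannot be told apart in whole-kidney RNA. The first comparison asked how kidneys in early remission after triple therapy stood against 30-week kidneys that had not become proteinuric. The fibrinogen means were lower in early triple, by 0.45 for Fga, 0.39 for Fgb and 0.42 for Fgg, but none of the 9 genes passed the threshold, with limma adjusted p of 0.505 to 0.997, and the share called over all genes was 0%. At an unadjusted p under 0.05, 1 of the 9 genes and 8.78% of all genes passed. That gene was F3, whose 8 early triple kidneys all lay below the 30-week mean (log2 difference -0.39 ± 0.16 SE, limma adjusted p = 0.505, and p = 0.051 in a two-sided exact permutation test). Ranges overlapped between these groups for all 9, whereas 0.133% of all genes did not overlap. The 9 genes had a median difference of -0.28, against 0.02 over all genes. Adrenal cortex markers spread widely within both groups (above), with a median difference of -0.97 and 0 of 7 called. Their part in the differences was not tested.

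The next comparison set late remission after Ad-TACI-Ig and CTLA4Ig against 30 weeks. None of the 9 genes passed the threshold, nor did any of the 15780 (0% called), while 5 of the 9 and 20.3% of all genes had an unadjusted p under 0.05. Fga was lower by 0.62 ± 0.18 (SE, 0 of 5 kidneys above the 30-week mean, limma adjusted p = 0.203). Fgb was lower by 0.76 ± 0.28 (SE, 0 of 5 above, adjusted p = 0.205) and Fgg by 0.63 ± 0.30 (SE, 1 of 5 above, adjusted p = 0.246). Linear ratios to 30 weeks were thus 0.65, 0.592 and 0.645, similar in size for the 3 chains, and the ranges of the groups overlapped for each (0.798% of all genes did not overlap).

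In the same kidneys Plaur and Thbd lay on the other side of the 30-week mean. Plaur was higher by 0.32 ± 0.11 (SE, 5 of 5 kidneys above the 30-week mean, limma adjusted p = 0.203) and Thbd by 0.26 ± 0.10 (SE, 4 of 5 above, adjusted p = 0.213). The median over the 9 genes was -0.27, against 0.04 over all genes. Late TACI-Ig replicate 2 decided the calls: without it 1309 genes passed in place of 0, and among the 9 only Fga did (difference -0.75, adjusted p = 0.0339). Replicate 2 had the highest Fga and Fgb and the lowest Serpina10 of the late TACI-Ig kidneys. Over the kidneys, the adrenal cortex mean correlated with the mean of the fibrinogen chains at r = 0.32 once group means were removed (n = 32), and its part in the difference was not tested.

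Late triple was compared with 30 weeks, with early triple and with late TACI-Ig. None of the 9 genes passed in any of these, where 0%, 0.0697% and 0.076% of all genes were called. Limma's adjusted p for the 9 genes was 1 in the first, 0.767 to 1 in the second and 0.984 in the third. In the third, 5 of 7 adrenal cortex and 3 of 5 adrenal medulla markers were higher in late triple. In the second, 2 of the 9 and 5.31% of all genes had an unadjusted p under 0.05. Against early triple, F3 was higher by 0.28 ± 0.11 (SE, 5 of 6 kidneys above the early triple mean, adjusted p = 0.767) and Serpina10 by 0.49 ± 0.23 (SE, 5 of 6 above, adjusted p = 0.937). The fibrinogen chains differed from early triple by 0.08 to 0.19 with intervals that reached from -0.51 to 0.89. A difference of that size was not detectable with these kidneys. With the late triple mean of each gene at that of the pooled 30-week and late TACI-Ig kidneys, these values repeat the comparisons of those kidneys with early triple.

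NZM2410 kidneys in remission were set against NZB/W late TACI-Ig, the remission group treated with a related adenovirus. Of the 9 genes, 2 were higher and 3 lower past the threshold, which is 5 of 9, while 59.5% of all genes passed (28.6% higher and 30.9% lower). The same 5 genes had an unadjusted p under 0.05, against 63.6% of all genes, so the share among the 9 was close to that of the array. The 9 genes had a median difference of 0.23, against 0 over all genes. Ranges did not overlap for 2 of the 9, Fgb and Plau, and for 38.5% of all genes.

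Plau differed most. It was lower in NZM2410 by 1.2 ± 0.11 (SE, 0 of 6 kidneys above the late TACI-Ig mean, limma adjusted p = 3.59e-06), a linear ratio of 0.436 with a 95% interval of the log2 difference from -1.44 to -0.95. Its difference ran from -1.26 to -1.11 over 18 other settings and it was called in all 18. The NZM2410 mean of Plau (5.51) lay below 6.07, the cut-off for dim genes. That cut-off was set on the mean over all kidneys, by which Plau was not among the dim genes. Plau alone of the 9 met the stricter filter named in the methods (here limma's adjusted p up to 0.001, ratio above 1.4 or below 0.7), as 20% of all genes did.

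Fgb was higher in NZM2410 by 0.85 ± 0.18 (SE, 6 of 6 kidneys above the late TACI-Ig mean, limma adjusted p = 0.00117), a linear ratio of 1.81. Exact permutation gave p = 0.00433 for Fgb and for Plau, the smallest that 6 against 5 kidneys allow (two-sided). The exact permutation test gave p = 0.0303 for Plaur and p = 0.0519 for Fgg and for Thbd, which limma called. Fgg was higher by 0.58 ± 0.23 (SE, limma adjusted p = 0.0431), and Fga by 0.23 ± 0.18 without passing (limma adjusted p = 0.285). The call of Fgg was lost in 7 of the 11 fits that left out 1 kidney, with its difference between 0.35 and 0.74. Beside the 30-week means of 9.61, 5.94 and 9.17 for Fga, Fgb and Fgg, those of NZM2410 were 9.22, 6.03 and 9.12, so that Fgb and Fgg stood near the 30-week level.

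Thbd was lower in NZM2410 by 0.39 ± 0.15 (SE, 1 of 6 kidneys above the late TACI-Ig mean, limma adjusted p = 0.0345). Plaur was lower by 0.33 ± 0.12 (SE, 0 of 6 above, limma adjusted p = 0.0251). Leaving out 1 kidney ended the call of Thbd in 7 of 11 fits and that of Plaur in 3 of 11. F3 (0.26), Serpina10 (-0.33) and Plat (0.38) did not pass, with limma adjusted p of 0.116, 0.371 and 0.0918. Plat passed without late TACI-Ig replicate 2 (0.52, limma adjusted p = 0.0188) or NZM2410 replicate 2 (0.50, 0.0181), Serpina10 without late TACI-Ig replicate 2 (-0.63, 0.0312) and F3 without NZM2410 replicate 5 (0.33, 0.0435). Plaur in NZM2410 averaged 7.42, next to 7.43 at 30 weeks, whereas Plau was lower than at 30 weeks as well (5.51 against 6.53). NZM2410 against 30 weeks was not fitted, and those values stand side by side.

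Marker lists were read against the same 59.5% of all genes called (28.6% higher and 30.9% lower). Kidney epithelium averaged 12.07 to 12.20 in NZM2410 and 11.39 to 11.80 in late TACI-Ig, with 5 of 7 genes higher and 0 lower. Hepatocyte markers averaged 5.93 to 6.21 in NZM2410 and 6.23 to 6.85 in late TACI-Ig, with 1 of 7 higher and 3 lower. Of the lower genes, Ahsg and Itih3 were dim, with NZM2410 means of 4.96 and 4.75. Platelet markers had 1 of 7 higher and 3 lower, endothelial markers 2 of 7 higher and 1 lower, and of 8 macrophage markers none passed. Adipose markers had 3 of 4 lower, adrenal cortex markers 1 of 7 higher and 2 lower, and adrenal medulla markers 1 of 5 higher and 4 lower. The tubular injury list had 0 of 7 higher and 2 lower (Havcr1 and Sox9, median of the list -0.35). The interleukin 6 and STAT3 list, with Stat3 and Il6 themselves in it, had 0 of 10 higher and 2 lower (Saa1 and Il6, median -0.20). Neither share of lower genes exceeded that of all genes. Sox9, Saa1 and Il6 were dim, with NZM2410 means of 5.3, 3.94 and 3.63. The part of epithelium, adipose tissue or strain in the values of Plau was not tested. Nor was the part in these counts of the wider spread of values on the NZM2410 arrays.

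**Figure D3:**
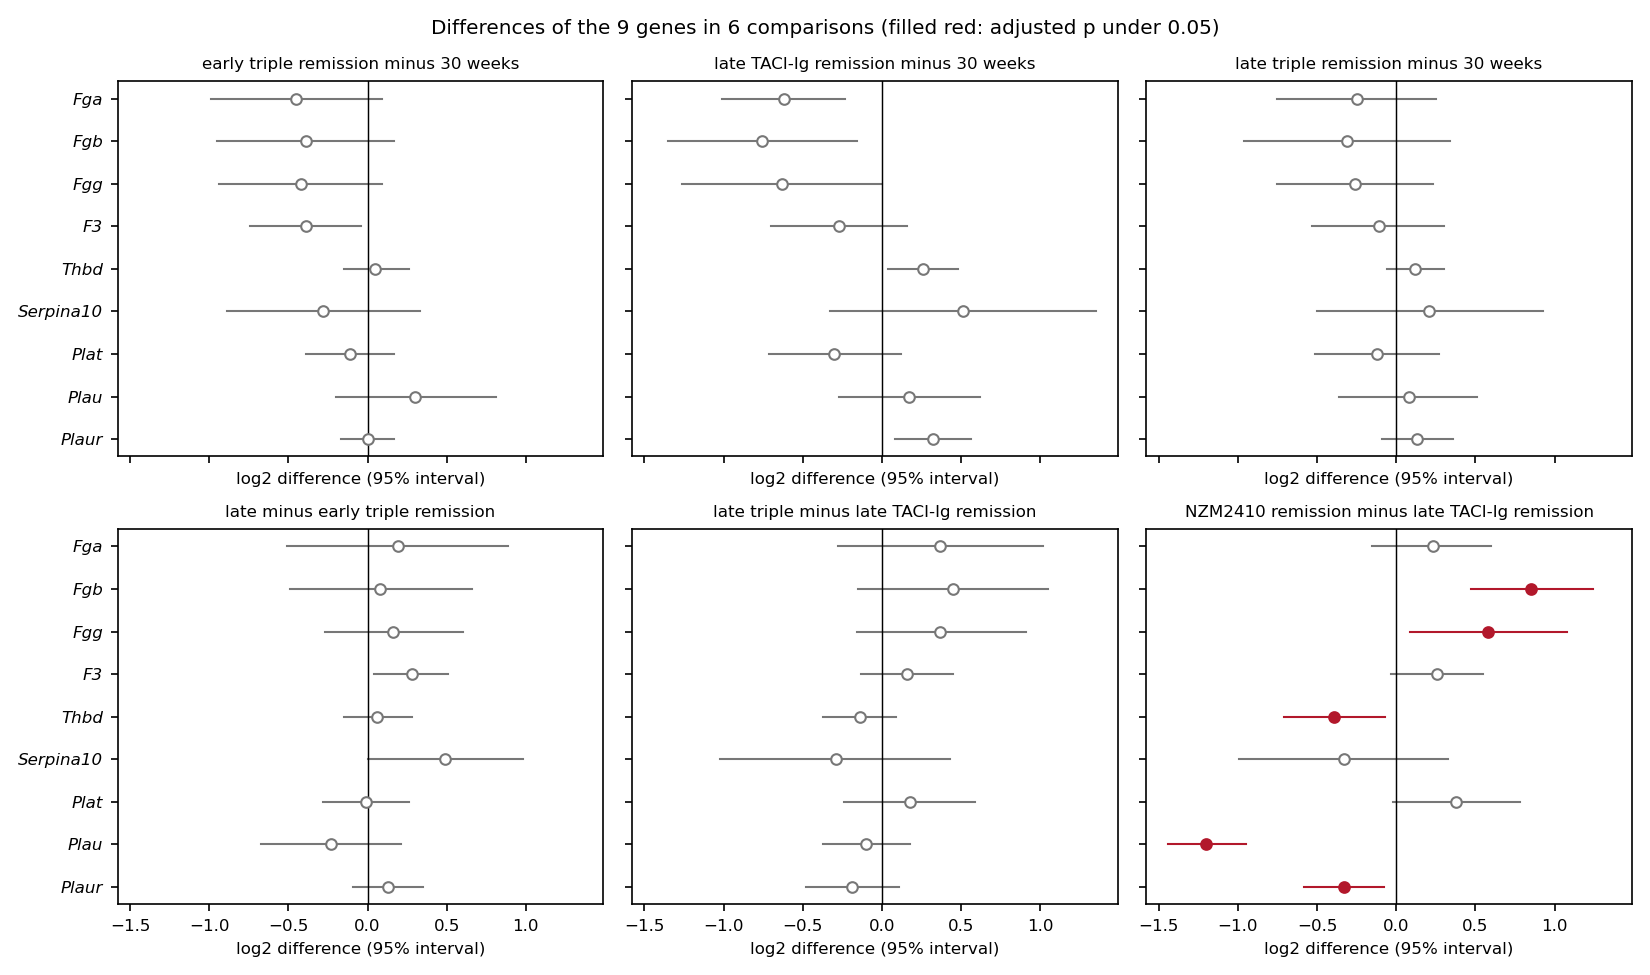
Log2 differences of the 9 genes (horizontal axes) in each of the 6 comparisons, with 95% intervals from limma. Filled red points have an adjusted p under 0.05: none in the NZB/W comparisons, and Fgb, Fgg, Thbd, Plau and Plaur in NZM2410 against late TACI-Ig.

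The other genes of the pathway were read from 4 lists, of which 30 genes were measured: 13 clotting factors, 9 anticoagulants, 6 fibrinolysis genes and 2 protease-activated receptors, through which thrombin signals to cells. None of the 30 passed in the 5 NZB/W comparisons. In late TACI-Ig against 30 weeks the extremes were F5, the gene of clotting factor V, at -0.55 ± 0.18 (SE, limma adjusted p = 0.203) and F2r, the gene of the main thrombin receptor, at 0.54 ± 0.21 (SE, limma adjusted p = 0.21). Both passed without late TACI-Ig replicate 2 (F5 at -0.73, limma adjusted p = 0.0252, and F2r at 0.70, limma adjusted p = 0.045). Without that kidney 1309 of the 15780 genes passed. Of the 30 pathway genes only these extremes were read in that fit. In early triple against 30 weeks the extremes were Fgl2, the gene of a membrane prothrombinase, at -0.45 (limma adjusted p = 0.53) and F2, the gene of prothrombin, at 0.22 (limma adjusted p = 0.487). Late triple had F5 and F2r at its extremes against 30 weeks (-0.23 and 0.23) and against late TACI-Ig (0.32 and -0.31). Against early triple its extremes were F13b, the gene of the factor XIII B subunit, at -0.29 and F2r at 0.46.

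In NZM2410 against late TACI-Ig, 13 of the 30 pathway genes passed, 4 higher and 9 lower, against the 59.5% of all genes given above. F5 was higher by 1.4 ± 0.19 (SE, limma adjusted p = 4.96e-05), from 5.96 to 7.36. Klkb1, which encodes plasma prekallikrein, was higher by 0.52 (limma adjusted p = 0.000335), and Proc and Proz, the genes of protein C and protein Z, by 0.53 and 0.59 (limma adjusted p = 0.00141 and 0.00976). Klkb1 was dim, with group means of 5.32 to 6.01, and Proz lay near the cut-off of 6.07, with group means of 5.64 to 6.22. The genes of the protein C pathway did not move one way, since Procr, the endothelial protein C receptor, was lower by 0.71 (limma adjusted p = 1.7e-05) and Thbd was lower as well.

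F2r, the thrombin receptor, was lower by 0.86 ± 0.24 (SE, limma adjusted p = 0.00802). F2, Plg (plasminogen, the substrate of both activators), F12, F8, F9, Serpinb2 (an inhibitor of urokinase) and F2rl2 were lower by 0.92, 0.79, 0.43, 0.33, 0.58, 0.45 and 0.72. Except for F8 these probe sets were dim, with group means of 3.36 to 5.82, and the NZM2410 arrays had the wider spread of values. After quantile normalization F9 was not called (-0.14, limma adjusted p = 0.283) and Serpinb2 changed sign (0.07, limma adjusted p = 0.339). F2rl2 shrank to -0.21 but was still called (limma adjusted p = 0.00845). F2, Plg, F12 and F8 also stayed called, at -0.60, -0.58, -0.29 and -0.34 (limma adjusted p of 0.026 or less). Plau and Fgb did not depend on quantile normalization, at -1.11 and 0.94.

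To set fibrinogen against plasminogen activation in each kidney, every gene was centred on its mean over 32 kidneys, and the means of Fga, Fgb and Fgg and of Plat, Plau and Plaur were taken. The fibrinogen mean was 0.28 ± 0.43 (SD, n = 7) in 30-week kidneys, -0.14 ± 0.52 (SD, n = 8) in early triple and 0.01 ± 0.37 (SD, n = 6) in late triple. It was -0.39 ± 0.47 (SD, n = 5) in late TACI-Ig and 0.17 ± 0.12 (SD, n = 6) in NZM2410. The plasminogen mean was similar in the NZB/W groups, at 0.03 ± 0.20 (SD, n = 7), 0.09 ± 0.20 (SD, n = 8), 0.06 ± 0.19 (SD, n = 6) and 0.09 ± 0.19 (SD, n = 5) in the same order, and -0.29 ± 0.11 (SD, n = 6) in NZM2410.

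The mean of fibrinogen minus plasminogen activation was highest in NZM2410, at 0.45 ± 0.18 (SD, n = 6), with kidneys from 0.27 to 0.73. The 30-week kidneys, from -0.50 to 0.92, enclosed that range. Of the 3 plasminogen genes, Plau was low in NZM2410, while Plat had its highest group mean there (9.86) and Plaur stood at the 30-week level. The difference was 0.25 ± 0.46 (SD, n = 7) in 30-week kidneys, -0.23 ± 0.41 (SD, n = 8) in early triple, -0.05 ± 0.32 (SD, n = 6) in late triple and -0.48 ± 0.46 (SD, n = 5) in late TACI-Ig. All 5 late TACI-Ig kidneys lay below 0, between -1.06 and -0.03, and did not overlap with NZM2410. Between these groups 38.5% of all genes did not overlap either, among them Fgb and Plau, which both enter this difference. These means are a description and were not tested. In early triple, replicates 1 and 2 were at 0.60 and 0.75 for fibrinogen and the other 6 kidneys at or below -0.07, so the group held both high and low kidneys.

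**Figure D4:**
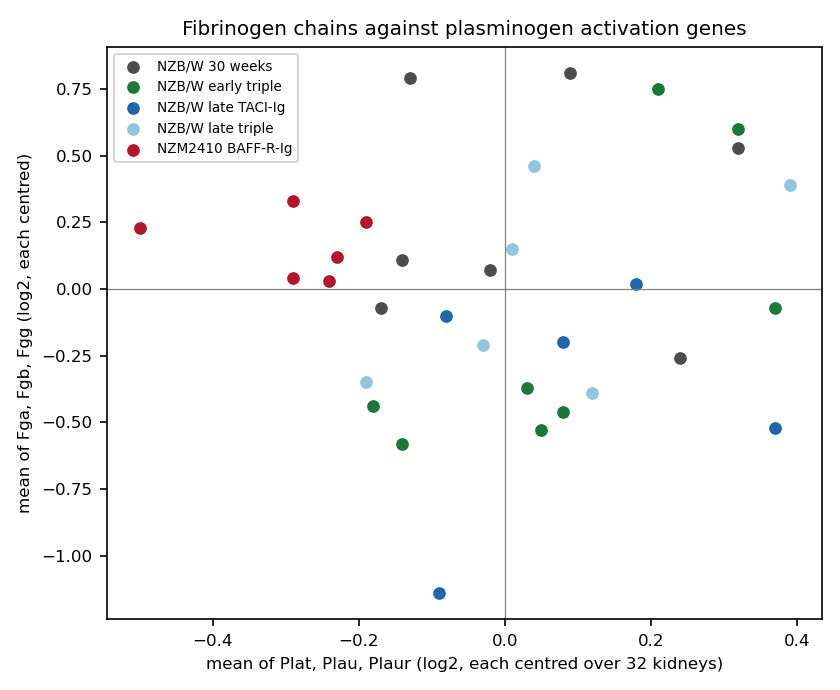
Each kidney's mean of Fga, Fgb and Fgg (vertical axis) against its mean of Plat, Plau and Plaur (horizontal axis), in log2 units with each gene centred over the 32 kidneys, coloured by group. NZM2410 kidneys sit at the left with plasminogen means of -0.50 to -0.19, and the lowest point is late TACI-Ig replicate 1 with a fibrinogen mean of -1.14.

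Within groups the genes were compared by Pearson's r over the 32 kidneys with group means removed, as a description of kidneys whose arrays were normalized together. Fgg followed both other chains (r = 0.63 with Fga and 0.63 with Fgb), while Fga and Fgb followed each other less closely (r = 0.29, Spearman's rho 0.51). Of 36 pairs of the 9 genes, 5 had an r above 0.4: these 2, Serpina10 with Plaur (0.50), F3 with Plau (0.48) and Fga with Plaur (0.47, Spearman's rho 0.26). The lowest was Serpina10 with Plat (-0.38), which was -0.12 without 30-week replicate 2 and NZM2410 replicate 3. The fibrinogen mean and the plasminogen mean had r = 0.38 (n = 32), so within groups kidneys with more of one tended to have more of the other. Plat, Plau and Plaur did not follow each other (r of -0.15 to 0.14), and their mean is a sum of unlike genes.

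**Figure D5:**
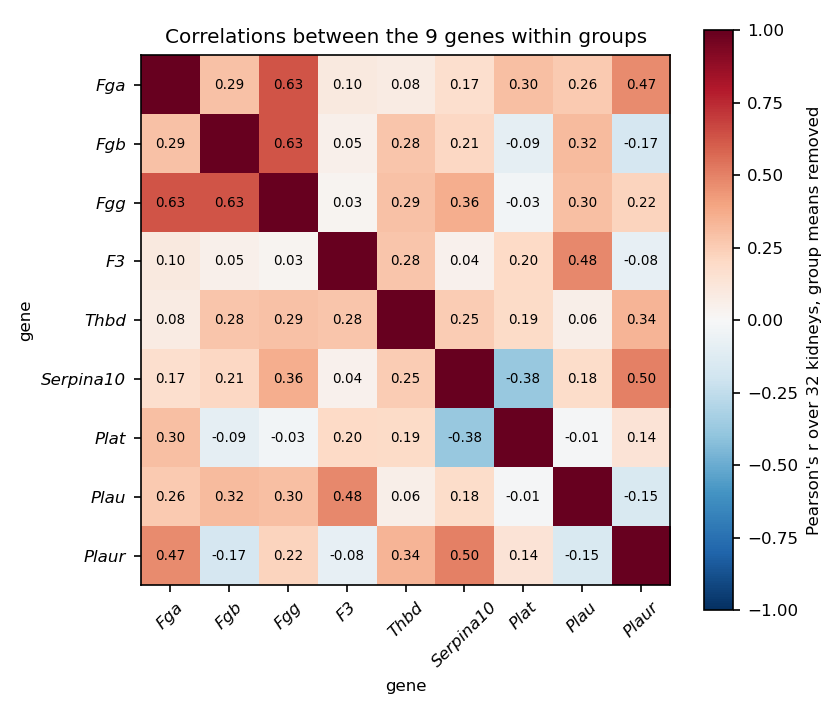
Pearson's r between the 9 genes over 32 kidneys with group means removed; both axes list the genes and the colour scale runs from -1 to 1. The fibrinogen chains form the block at the upper left, with r of 0.63, 0.63 and 0.29.

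The genes most like the fibrinogen mean by r (n = 32) were Bex1 (0.71), Pnrc1 (0.70), Hprt (0.69), Apoa2 (0.65), Med11 (0.64), Apoc3 (0.63), Pqbp1 (0.63), Aimp1 (0.61), Pla2g7 (0.61) and Eif3k (0.61). By rank correlation 6 of these 10 were named again, and without the 2 kidneys above 4 were. Each chain had its own neighbours. Fga was most like Tmem252, Sra1 and Cebpb (each 0.79), the last the gene of C/EBP beta. Early triple replicate 2 and late triple replicate 8, which stood apart for Fga, were kept in all of these correlations. Fgb was most like Alb (0.71), Ambp (0.69) and Apoa2 (0.68), all of them abundant liver transcripts. Fgg was most like Pla2g7 (0.73), Apoe (0.72) and Srgn (0.69).

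Hepatocyte markers followed Fgb more closely than the other chains. Their mean had r = 0.66 with Fgb, 0.40 with Fgg and 0.30 with Fga, and 6 of the 7 genes had an r above 0 to each chain. Alb, the gene of albumin, had log2 values from 7.38 to 10.36 over all kidneys, and r = 0.71 with Fgb but 0.08 with Fga. Serpinc1, the gene of antithrombin, had r = 0.67 with Fgb. The part of liver-type transcripts in Fgb was not tested. Rank correlation gave none of the 3 named genes again among the first 3 for Fgb or for Fga, while their rho values were lower than r, at 0.46 to 0.53 for Fgb and 0.57 to 0.60 for Fga.

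The interleukin 6 and STAT3 list had r = 0.62 with Fgg, 0.46 with Fga and 0.30 with Fgb. Its 10 genes include acute-phase genes such as Saa3 and Lbp, and also Stat3, Socs3, Osmr and Il6. All 10 genes had an r above 0 to Fgg and Fga, and 6 did to Fgb. The tubular injury list (7 genes) had r = 0.52 with Fgg, and 0.63 without the 2 kidneys above. Of its 7 genes 6 had an r above 0 to Fgg. Lcn2, the gene of lipocalin 2, was the highest (0.65), while Havcr1 was at 0.16 and Sox9 at -0.03. The macrophage list had r = 0.47 with Fgg, with all 8 genes above 0 (Itgam 0.60, Cd68 0.54), and 0.36 without those kidneys.

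Serpina10 was most like Ssu72 (0.85), Icam1 (0.83), an adhesion molecule of activated endothelium, and Pde4b (0.80). Its r was 0.70 to the acute-phase list, 0.63 to the macrophage list and -0.51 to the kidney epithelium list. Without the 2 kidneys above these became 0.54, 0.42 and -0.37. Plat had r = 0.65 to kidney epithelium and -0.44 to macrophage markers, and 0.55 and -0.31 without those 2 kidneys. Of the 7 epithelium genes 5 had an r above 0 to Plat, the highest being Nphs1, the podocyte gene of nephrin (0.70). Plat was most like Fth1 (0.83), Ptprg (0.82) and Errfi1 (0.80).

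Thbd was most like Synpo (0.73), which encodes the podocyte protein synaptopodin, Atp1b3 (0.71) and Cdkn1c (0.69). Among NZB/W kidneys alone none of these 3 was named again. F3 was most like D430019H16Rik (0.71), Cdc14a (0.68) and Sh3yl1 (0.62). Plau was most like Pam (0.66), Timmdc1 (0.61) and Phax (0.60), and Plaur was most like Trib1 (0.77), Itprip (0.76) and Inhbb (0.76). By rank correlation 1 of the 3 was named again for each of F3, Plau and Plaur. Among NZB/W kidneys alone 1 of 3 was for each of Plat, Plau and Plaur. Without 30-week replicate 2 and NZM2410 replicate 3, 1 of 3 was for each of Fga, Fgg, Thbd and Serpina10. To the acute-phase list Plaur had r = 0.58, whereas Plau had an r near 0 (0.03). Within that list Il6 had r = 0.66 with Plaur, but its probe set was dim, with group means of 3.63 to 4.01.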

How the data were processed

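Whole-kidney RNA of 32 samples was profiled on Affymetrix arrays. The deposited table holds log2 values from RMA, as the submitters' processing notes name it (version not given in the sources used here). According to the methods, normalization and batch correction were done jointly; the batches are not named. Of 16539 probe sets, 64 controls and 695 without a gene name were left out, and 15780 genes, 1 probe set each, were tested. No value columns were left out.

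Values were used as deposited. Groups came from sample titles. Each of 6 comparisons was fitted on its 2 groups with limma 3.58.1 (lmFit, eBayes) under R 4.3.3, with Benjamini-Hochberg adjustment over 15780 genes, threshold 0.05. The SAM test of the methods was not run. Python 3.11.15 with pandas 2.3.3, numpy 2.4.6 and scipy 1.17.1 did the exact permutation tests, and matplotlib 3.10.9 the figures. The code was tested on simulated data. Members, gene lists, comparisons and alternatives were chosen with earlier results of these data known. Named genes are the 9, list genes past the threshold, pathway genes at the extremes, and those most correlated with each; markers past the threshold are given as counts. Serpinc1, Lcn2, Il6, Nphs1, Itgam and Cd68 were singled out after their correlations were seen. Motifs were searched in RefSeq windows of 250 bases upstream.

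Alternatives were each kidney left out in turn, a joint fit, quantile normalization, median centring, dim genes left out, array weights, a robust prior with an intensity trend, a replicate block, mice named BG alone, and leaving out both kidneys that share a mouse code.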

Additional observations from a re-analysis of the deposited data

Results flagged for a closer look

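Dixon's test at the 95% level was applied to 45 groups of values, 9 genes in 5 groups, and 6 values stood apart, where chance flags about 1 in 20. For Fga, early triple replicate 2 was at 10.81 (others 8.67 to 9.61) and late triple replicate 8 at 10.71 (others 8.87 to 9.34). For Serpina10, 30-week replicate 2 was at 9.94 (others 7.57 to 8.21), and for Plat the same kidney was at 8.92 (others 9.77 to 10.07). For Thbd, early triple replicate 8 was at 8.06 (others 8.48 to 8.82). For Plau, late triple replicate 11 was at 7.13 (others 6.4 to 6.65).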

How the results depend on the processing

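The calls of Plau and Fgb in NZM2410 against late TACI-Ig were kept under every alternative run (Fgb is among the dim genes and could not be fitted with those left out). The members past the threshold there numbered 5, 3 with dim genes left out (5368 genes called) and 2 to 7 with 1 kidney left out (2 without late TACI-Ig replicate 4 or NZM2410 replicate 4, 3 without NZM2410 replicate 1); Fgg also lost its call under the joint fit, quantile normalization, median centring and the intensity trend, and Plat gained one with array weights (0.46). After quantile normalization Serpinb2 was at 0.07.

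Same-numbered kidneys did not pair (r of their deviations from group means -0.71 to 0.34), so the replicate block is no test of pairing: with it 1 gene was called in late TACI-Ig against 30 weeks and 1 in late against early triple, Plat there was at 0.06, and in late triple against 30 weeks Serpina10 was at -0.04 and Plau at -0.15. No paired analysis was possible for late triple against late TACI-Ig because they share no numbers.

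Genes called in early triple against 30 weeks numbered 0, 3 in the joint fit, 123 with array weights and 0 to 12 with 1 kidney left out (12 without 30-week replicate 2, 10 without early triple replicate 8); Plaur was at -0.00 with array weights. Without the kidneys that share a mouse code Thbd was at -0.01 and Plaur at -0.03. With 1 kidney left out Serpina10 ran from -0.39 to 0.01 and Plaur from -0.04 to 0.04. In late TACI-Ig against 30 weeks 0 to 1309 genes and 0 to 1 members were called with 1 kidney left out (1309 genes and Fga without late TACI-Ig replicate 2, 4 genes without 30-week replicate 7). In late triple against 30 weeks F3 ran from -0.24 to 0.01 and Plau from -0.06 to 0.20. In late against early triple 11 genes were called, 1 in the joint fit, 0 after quantile normalization (Plat at 0.03), 65 with array weights, 7 with the intensity trend and 0 to 32 with 1 kidney left out (32 without late triple replicate 8, 30 and 27 without early triple replicates 8 and 2), where Fga ran from -0.08 to 0.43, Fgb from -0.14 to 0.24, Thbd from -0.01 to 0.10 and Plat from -0.14 to 0.06. In late triple against late TACI-Ig 12 genes were called and 0 in the joint fit. The causes of these shifts were not tested. Without 30-week replicate 2 and NZM2410 replicate 3, fibrinogen minus plasminogen activation was 0.14 at 30 weeks and 0.48 in NZM2410. Dim probe sets such as that of Fgb limit what can be detected.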
